A study of Mus musculus with 15 samples.

Results

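Endothelial cells line the inside of blood and lymphatic vessels, and their RNA in a whole-gland library comes mixed with that of all other cells. The markers described here are 33 genes used to recognise blood and lymphatic endothelium. They were chosen by gene symbol, with earlier results of these data known. All 33 symbols were found among the 21013 gene symbols of the count table, and all 33 passed the low-count filter that left 16042 genes for testing.

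The 15 libraries held RNA of the submandibular gland, a salivary gland under the jaw, from wildtype male C57BL/6 mice aged 8 to 10 weeks, with 3 libraries in each of 5 groups. The first group was nontreated (NT). The IR_4d and IR_30d groups received 15 Gy of irradiation at the gland region and were collected on day 4 or day 30. The IR_iEV_4d and IR_iEV_30d groups were irradiated in the same way, received iEVs into the gland every week from day 1, and were collected on the same days. The abbreviation iEV is not explained for the samples, and the title of the series speaks of extracellular vesicles from mesenchymal stem cells. A vehicle injection is not among the groups, nor are iEVs in glands that were not irradiated, so the injection and the iEVs cannot be told apart. The day on which NT glands were collected is not stated. Nor do the labels say that each library came from its own mouse, so p-values rest on the spread among libraries of a group, part of which may be technical.

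Blood vessels form a continuous tube because endothelial cells hold each other through adherens and tight junctions. Vascular endothelial growth factors act through the receptors Kdr, Flt1 and Flt4, and angiopoietins act through Tek with its partner Tie1. Capillaries of secretory glands pass water and solutes to the acini, and many of them have fenestrae closed by diaphragms made of Plvap. Lymphatic endothelium is set apart by the transcription factor Prox1 and the receptor Flt4.

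The libraries held between 29082798 and 52201098 counts, of which 6080 to 12816 fell on the 33 markers together. The fewest counts for one marker in one library were 6 (Prox1) and the most were 1623 (Eng). Markers of gland epithelium had a mean of 6.94 to 7.32 log2 CPM (counts scaled to a common library size, on a log scale) in every library. Markers of neighbouring tissue were uneven. The sublingual list (4 of 5 genes found) stood at 7.48 to 10.7 log2 CPM in NT replicate 1, IR_4d replicates 1 and 2, IR_iEV_4d replicates 2 and 3 and IR_iEV_30d replicate 2. It lay at -1.97 to 2.37 in the other 9 libraries. Parotid markers ran from 1.78 to 7.27. Adipose markers were highest in IR_iEV_4d replicate 2 (4.43), IR_4d replicate 3 (3.11) and IR_iEV_4d replicate 1 (2.91), and skeletal muscle markers stood at 3.46 in IR_iEV_4d replicate 2 and below -2 elsewhere. The 6 libraries with the high sublingual level, called sublingual-high below, were left out in a second fit that is quoted where it moves a result. That fit kept NT replicates 2 and 3, IR_4d replicate 3 alone, IR_iEV_4d replicate 1 alone, all of IR_30d and IR_iEV_30d replicates 1 and 3. Its comparisons with a day 4 group therefore rest on a single library of that group, and their p-values are not quoted.

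Promoter windows from RefSeq on build GRCm38.p6 were matched for 17 of the 33 markers. The stretches of Cd34, Clec14a and Emcn are shown because these surface glycoproteins had the lowest p-values on day 30 among the markers with a window. Each holds the 250 bases before the gene start on the gene's own strand, 5′ to 3′. Capitals mark TTCCTGTT, which reads AACAGGAA on the opposite strand. These letters are a short form of the composite site of forkhead and ETS factors, the latter including Erg.
Cd34, chr1:194938571-194938820, plus strand: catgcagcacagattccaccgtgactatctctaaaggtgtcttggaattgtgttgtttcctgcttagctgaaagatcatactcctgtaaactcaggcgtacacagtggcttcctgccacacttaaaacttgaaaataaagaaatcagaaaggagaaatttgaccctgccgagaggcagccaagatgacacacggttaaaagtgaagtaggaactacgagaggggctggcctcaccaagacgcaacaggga
Clec14a, chr12:58269259-58269508, minus strand: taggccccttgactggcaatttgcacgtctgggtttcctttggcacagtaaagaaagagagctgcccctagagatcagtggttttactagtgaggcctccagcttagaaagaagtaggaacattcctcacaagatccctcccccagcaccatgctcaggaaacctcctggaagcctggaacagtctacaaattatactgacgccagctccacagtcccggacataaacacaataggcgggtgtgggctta
Emcn, chr3:137340828-137341077, plus strand: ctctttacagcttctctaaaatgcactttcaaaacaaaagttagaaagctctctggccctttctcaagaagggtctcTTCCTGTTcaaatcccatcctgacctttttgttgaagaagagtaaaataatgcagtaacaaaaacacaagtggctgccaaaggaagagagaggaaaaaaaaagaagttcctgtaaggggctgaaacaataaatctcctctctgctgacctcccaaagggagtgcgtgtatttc
The match in Emcn starts at position -173 from the gene start. Windows of 300 bases, with the first 50 bases of the gene, were searched on both strands for AACAGGAA, for the ETS letters CCGGAAGT and CAGGAAGT, and for the SOX letters ACAAAG and ACAATG. AACAGGAA shares the letters CAGGAA with CAGGAAGT, so a match to one can overlap a match to the other. The 17 markers had 22 windows together. Markers are named below by gene, while the shares are per window. AACAGGAA was found in the windows of Egfl7 and Emcn and in 2.43% of all 19584 windows. CAGGAAGT was found in Egfl7 (3.44% of windows) and CCGGAAGT in none of the 17 markers (5.78%). ACAAAG was found in Apln, Egfl7, Eng, Prox1 and Tek (15.4%), and ACAATG in Erg and Mmrn1 (8.77%). A match is a description of the letters and does not show binding, and the absence of a match concerns only these letters in this window.

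Per length of exonic sequence, Plvap was the most abundant marker with a mean of 12.8 CPM per kb over the 15 libraries, followed by Eng, a coreceptor of the TGF-beta family, with 6.55. Sox18 (2.75), Cdh5 (2.44) and Pecam1 (2.38) came next. The least abundant were Prox1 (0.0659), Apln (0.16) and Sox7 (0.183). On the scale of summed CPM, the 33 markers reached 241 ± 43.7 (SD, n = 3) in NT, 232 ± 7.93 in IR_4d, 272 ± 22.9 in IR_iEV_4d, 205 ± 11.8 in IR_30d and 209 ± 13.2 in IR_iEV_30d. The 3 NT libraries summed to 288, 232 and 202 CPM, so NT spanned nearly all of the range seen in the irradiated groups. In NT replicate 1, 29 of the 33 markers lay above their own mean over the 15 libraries, against 5 in NT replicate 3. The same count was 26, 27 and 18 in the IR_iEV_4d libraries, 13, 7 and 17 in IR_4d, 5, 7 and 9 in IR_30d and 11, 5 and 15 in IR_iEV_30d. The group with the highest mean was IR_iEV_4d for 23 markers and NT for 7, and the group with the lowest mean was IR_30d for 15 and IR_iEV_30d for 11.

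**Figure D1:**
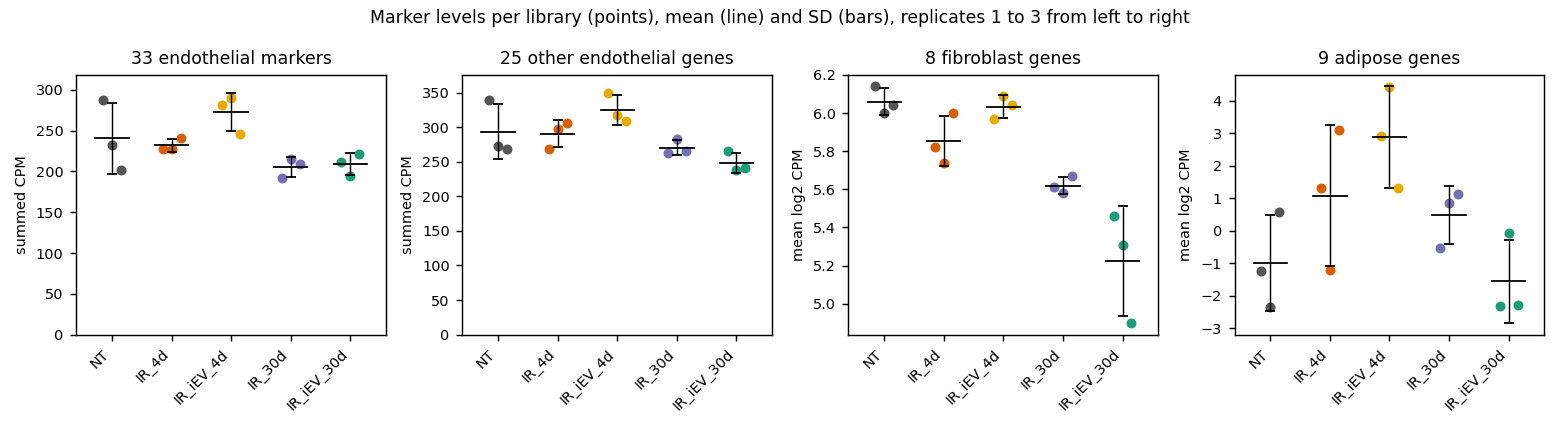
Levels of marker lists in each of the 15 libraries: summed CPM of the 33 endothelial markers and of 25 other endothelial genes, and mean log2 CPM of 8 fibroblast and 9 adipose genes (y axes). Points are libraries with replicates 1 to 3 from left to right, lines are means and bars are SD (n = 3). The NT libraries span 202 to 288 CPM for the endothelial markers, and the 6 libraries of day 30 lie between 192 and 221.

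**Figure D2:**
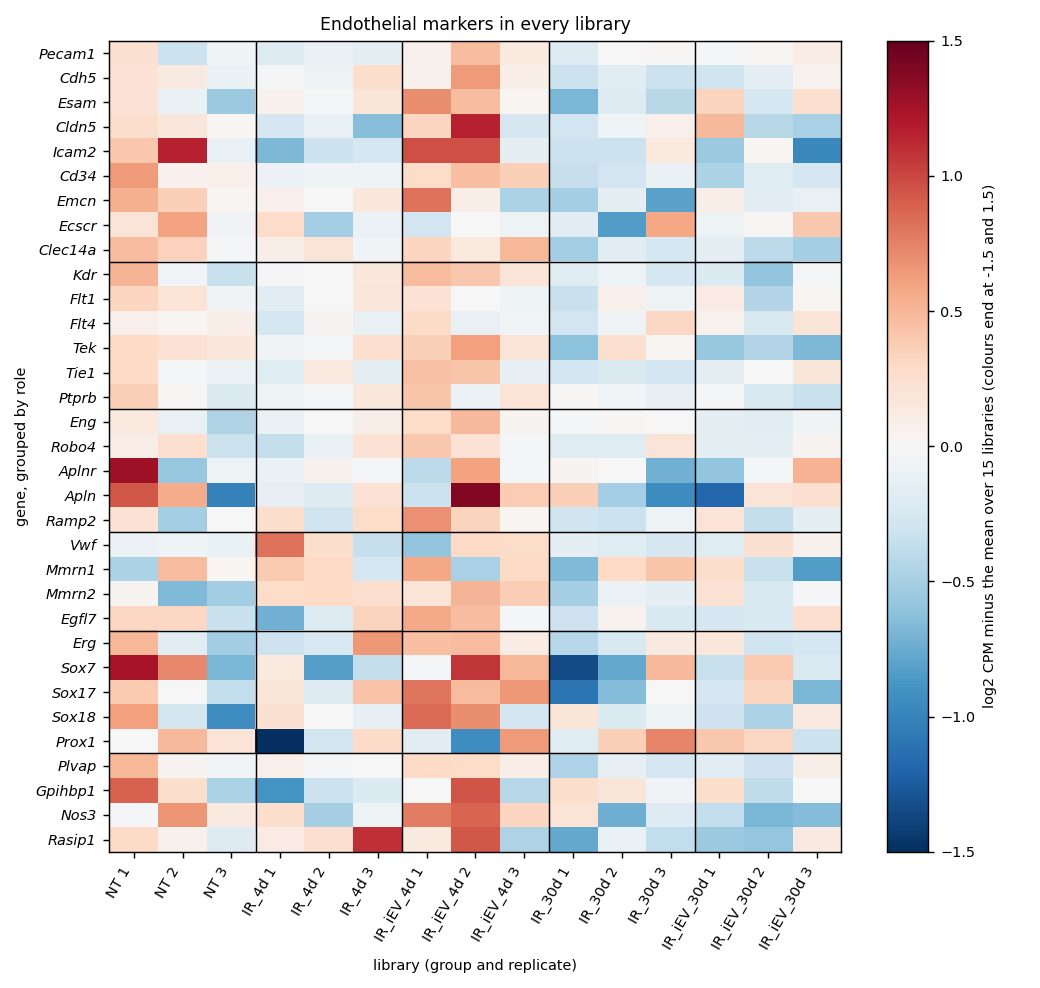
Each of the 33 endothelial markers (rows, grouped by role) in each library (columns), coloured by log2 CPM minus the marker's mean over the 15 libraries, with colours ending at -1.5 and 1.5. Red predominates in NT replicate 1 and in IR_iEV_4d replicates 1 and 2, where 29, 26 and 27 markers lie above their mean CPM (a mean taken without logs).

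The comparison of IR_4d with NT asked what irradiation alone left in the gland after 4 days. None of the 33 markers passed the test (edgeR's quasi-likelihood test, Benjamini-Hochberg adjusted p under 0.05), against 1.4% of all 16042 genes. DESeq2 called 1 marker, Mmrn2, also without a DESeq2 share of all genes beside it. At an unadjusted p under 0.05 there was 1 marker on the higher side (Mmrn2) and 2 on the lower side (Icam2, Cd34), against 11.6% of all genes. The 33 changes ran from -0.97 (Icam2) to 0.63 (Mmrn2) in log2 ratio with a median of -0.16, and 23 lay below 0, against 50.5% of all genes with a median of 0. That direction rested on NT replicate 1: without it 16 markers lay below 0 and the median was 0.01. Without IR_4d replicate 1 the median was -0.08. Without the 6 sublingual-high libraries, with IR_4d replicate 3 alone in its group, 15 lay below 0 with a median of 0.05. No gene of the vessel subtype, angiogenic ligand or pericyte lists passed on day 4, while the macrophage receptor Csf1r (-0.57 ± 0.11, adjusted p = 0.00891) and the fibroblast receptor Pdgfra (-0.50 ± 0.12, adjusted p = 0.0386) fell. The Csf1r call was lost without NT replicate 3 or IR_4d replicate 1 (adjusted p 0.0585 and 0.0609). The Pdgfra call held without NT replicate 1 and was lost without any other one of the 6 libraries (adjusted p 0.0667 to 0.205).

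Pecam1, the adhesion molecule CD31 at the contacts between endothelial cells, had 17.2, 11.7 and 14.0 CPM in the NT libraries, 12.8, 13.6 and 13.3 in IR_4d, 15.4, 20.3 and 16.3 in IR_iEV_4d, 12.8, 14.7 and 14.8 in IR_30d and 14.5, 14.8 and 15.8 in IR_iEV_30d. The NT libraries overlapped with every other group. Its log2 ratio was -0.11 ± 0.13 (SE) in IR_4d against NT, with a 95% interval from -0.39 to 0.17. On day 30 it was -0.02 ± 0.13, with an interval from -0.30 to 0.26.

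Cdh5, the VE-cadherin of endothelial adherens junctions, had 11.7, 11.1 and 9.41 CPM in NT, 9.90, 9.57 and 12.1 in IR_4d, 10.6, 15.8 and 10.8 in IR_iEV_4d, 8.07, 8.98 and 8.10 in IR_30d and 8.21, 9.16 and 10.5 in IR_iEV_30d. All 3 IR_30d libraries lay below all 3 NT libraries, while IR_4d and NT overlapped. The log2 ratio of IR_30d to NT was -0.36 ± 0.16 and did not pass the test (adjusted p = 0.269).

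Kdr, the main signalling receptor for Vegfa, had 25.0, 17.1 and 13.9 CPM in NT, 17.3, 17.5 and 19.6 in IR_4d, 24.4, 23.3 and 20.0 in IR_iEV_4d, 15.5, 16.7 and 14.6 in IR_30d and 15.2, 11.6 and 17.2 in IR_iEV_30d. All 3 IR_iEV_4d libraries lay above all 3 IR_4d libraries, and the NT libraries spanned both groups. None of its differences passed the test in the fit of all 15 libraries. Prox1, which gives lymphatic endothelium its identity, had 0.516, 0.723 and 0.592 CPM in NT, 0.177, 0.423 and 0.629 in IR_4d and 0.458, 0.271 and 0.804 in IR_iEV_4d. On day 30 it had 0.453, 0.660 and 0.857 CPM in IR_30d and 0.682, 0.641 and 0.411 in IR_iEV_30d. Every pair of groups overlapped. With 6 to 33 counts per library, its log2 ratio of IR_30d to NT had a 95% interval from -0.95 to 1.18. A fall or a rise within those bounds thus remained compatible with the data.

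**Figure D3:**
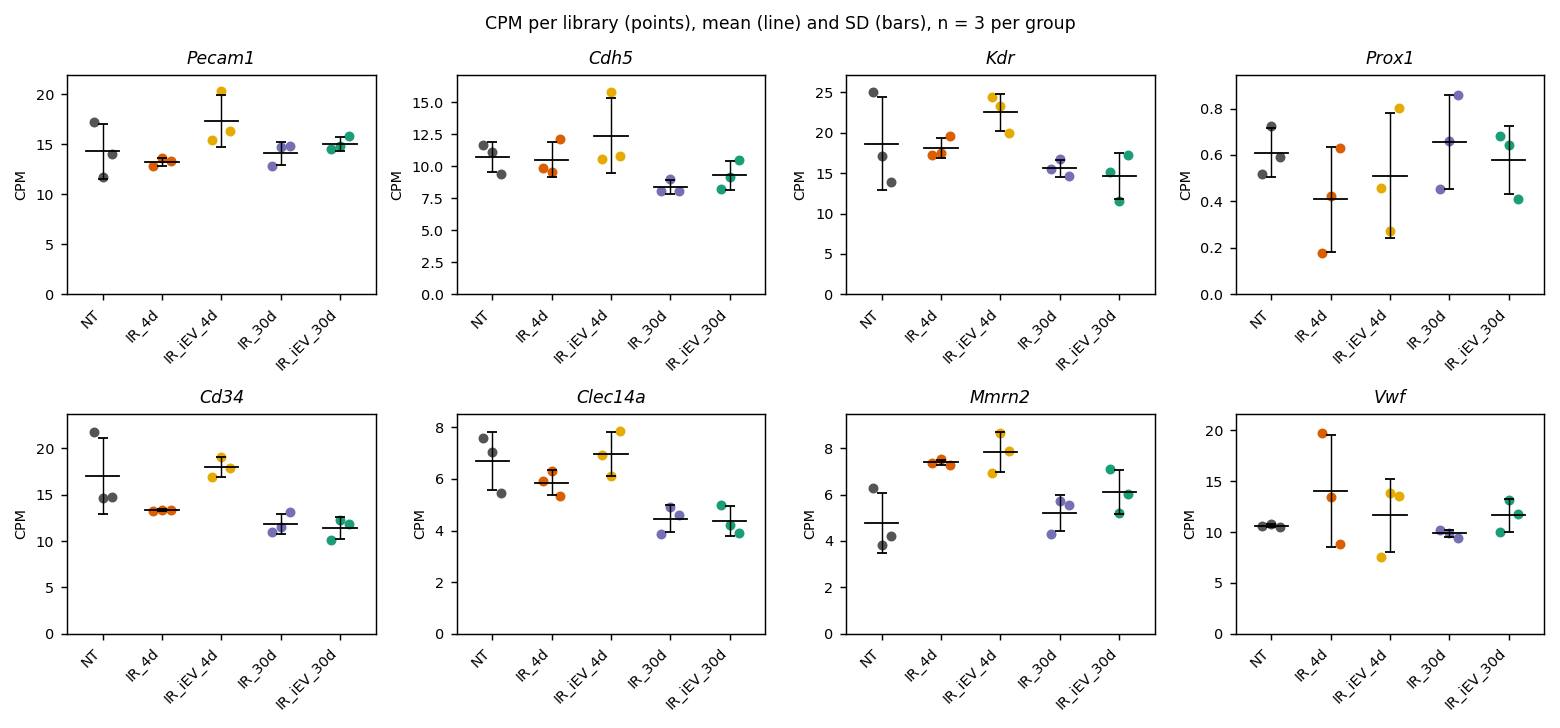
CPM of 8 endothelial markers in every library (y axes from 0), by group. Points are libraries, lines are means and bars are SD (n = 3). NT replicate 1 is the highest NT library for Pecam1, Cdh5, Kdr, Cd34, Clec14a and Mmrn2, and all IR_30d libraries lie below all NT libraries for Cdh5, Cd34, Clec14a and Vwf.

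Mmrn2, an extracellular matrix protein that binds the endothelial surface protein Clec14a, had 6.27, 3.84 and 4.23 CPM in NT, 7.36, 7.52 and 7.27 in IR_4d, 6.94, 8.66 and 7.87 in IR_iEV_4d, 4.32, 5.71 and 5.56 in IR_30d and 7.10, 5.22 and 6.01 in IR_iEV_30d. Every day 4 library, with or without iEVs, lay above every NT library, and day 30 overlapped with NT. The log2 ratio of IR_4d to NT was 0.63 ± 0.18 and did not pass the edgeR test (adjusted p = 0.121). DESeq2 gave an adjusted p of 0.0433 for it, and without NT replicate 1 edgeR gave 0.87 with an adjusted p of 0.0151. In IR_iEV_4d against NT Mmrn2 rose by 0.71 ± 0.18 (95% interval 0.33 to 1.10, adjusted p = 0.04996). This was the single marker past the threshold in that comparison, where 2.31% of all genes passed and 1.35% passed as higher. The call sat at the threshold. It was lost when NT replicate 2 or 3 or any of the 3 IR_iEV_4d libraries was left out (adjusted p 0.0691 to 0.219). Without the sublingual-high libraries, with IR_iEV_4d replicate 1 alone in its group, the log2 ratio was 0.75.

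The comparison of IR_30d with NT asked what irradiation alone left after 30 days. Cd34, a sialomucin of capillary endothelium that is also found on fibroblasts and progenitor cells, was the single marker of 33 that passed, with 4.48% of all genes passing and 1.29% passing as lower. It had 21.8, 14.6 and 14.7 CPM in NT, 13.2, 13.4 and 13.4 in IR_4d, 16.9, 19.1 and 17.9 in IR_iEV_4d, 11.0, 11.5 and 13.1 in IR_30d and 10.1, 12.3 and 11.8 in IR_iEV_30d. The 9 libraries of IR_4d, IR_30d and IR_iEV_30d all lay below the lowest NT library, and IR_iEV_4d overlapped with NT. Cd34 fell by 0.52 on the log2 scale in IR_30d against NT (SE 0.14, 95% interval -0.82 to -0.23, adjusted p = 0.04153). In a whole gland, fewer endothelial cells and less of this RNA per cell cannot be told apart.

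The fall of Cd34 on day 30 depended on single libraries. Without NT replicate 1, the library with 21.8 CPM, it was -0.30 with an adjusted p of 0.208, and without the sublingual-high libraries it was -0.33 with an adjusted p of 0.278. Leaving out IR_30d replicate 1, 2 or 3 gave adjusted p-values of 0.145, 0.151 and 0.0679, while leaving out NT replicate 2 or 3 kept the call. Fibroblast markers moved in the same comparison: 5 of 8 fell and none rose. The 4 with the lowest p were the collagen gene Col1a1 (-0.70 ± 0.13), the receptor Pdgfra (-0.60 ± 0.12), Col1a2 (-0.46 ± 0.10) and Pi16 (-0.71 ± 0.18), with adjusted p-values from 0.0032 to 0.0313. Without single libraries Col1a1 and Pdgfra kept their calls. Col1a2 lost its call without NT replicate 2 or IR_30d replicate 2 or 3 (adjusted p 0.0558 to 0.0699), and Pi16 without any library but IR_30d replicate 3 (adjusted p 0.0528 to 0.158). The summed level of all 8 fibroblast markers was 926 to 1060 CPM in NT, 690 to 729 in IR_30d and 462 to 678 in IR_iEV_30d, and none of the 8 was at 0. In IR_iEV_30d against NT 5 of 8 fell as well, led by Pdgfra (-0.90 ± 0.12), Col1a1 (-0.90 ± 0.13), Col1a2 (-0.69 ± 0.10) and Col3a1 (-1.07 ± 0.18). The part of fibroblast RNA in the Cd34 result was not tested.

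**Figure D4:**
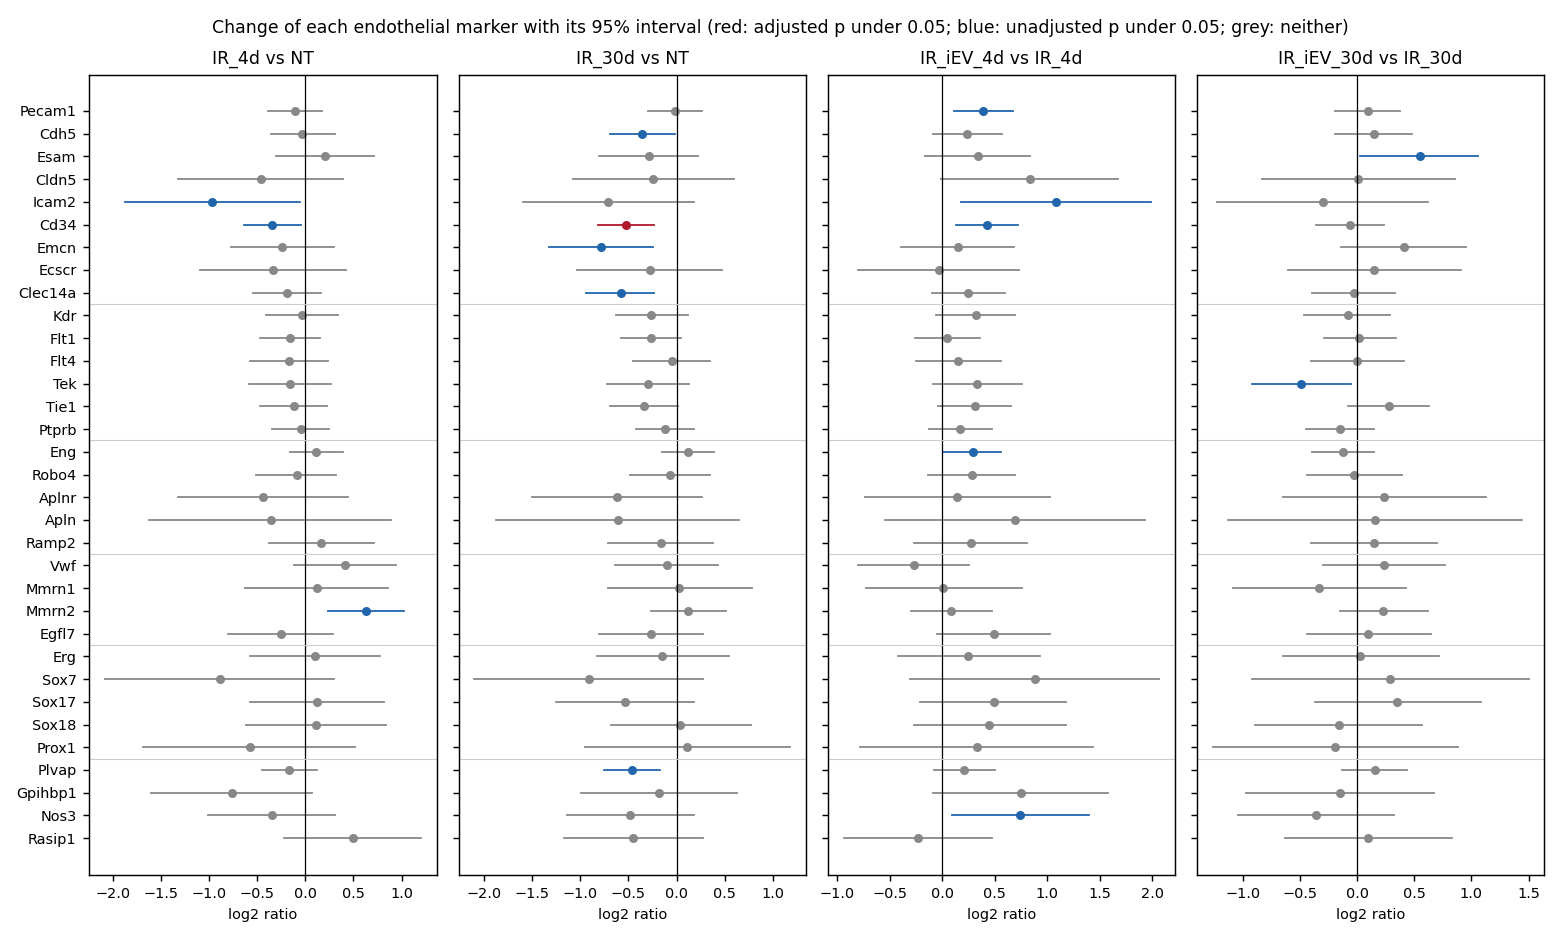
Log2 ratio (x axes) with 95% interval for each of the 33 endothelial markers (rows, grouped by role) in 4 comparisons. Red marks an adjusted p under 0.05, blue an unadjusted p under 0.05 alone, grey neither. Cd34 in IR_30d against NT is the single red point, and 30 of 33 points in IR_iEV_4d against IR_4d lie above 0.

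A further 4 markers had an unadjusted p under 0.05 in IR_30d against NT and, like Cd34, lay lower in all 3 libraries than in any NT library; 6.95% of all genes had such a p on the lower side. Clec14a, a C-type lectin of the endothelial surface that takes part in vessel sprouting, had 7.59, 7.04 and 5.44 CPM in NT and 3.87, 4.90 and 4.60 in IR_30d, a log2 ratio of -0.58 ± 0.17 (adjusted p = 0.05902). Plvap, the protein of fenestral diaphragms, had 35.6, 25.8 and 24.4 CPM in NT and 18.2, 23.1 and 21.1 in IR_30d, a log2 ratio of -0.46 ± 0.14 (adjusted p = 0.06735). Emcn, a sialomucin of capillaries and veins, had 6.45, 5.69 and 4.55 CPM in NT and 3.14, 4.02 and 2.54 in IR_30d, a log2 ratio of -0.78 ± 0.26 (adjusted p = 0.1046). The remaining one was Cdh5, and none of the 4 passed the edgeR test. DESeq2 called Cd34, Clec14a, Emcn and Plvap, with adjusted p-values of 0.0152, 0.0233, 0.0486 and 0.0326. The share of all genes that DESeq2 called is not given here, so this count has no background beside it.

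Seen by role, the log2 ratios of all 9 junction and surface glycoproteins lay below 0 on day 30, with a median of -0.36. So did those of all 6 growth factor receptors with their phosphatase (median -0.26) and of all 4 genes of capillary specialisation and signalling (median -0.45). The other receptors with the ligand Apln had 4 of 5 below 0 (median -0.16), the transcription factors 3 of 5 (median -0.15) and the secreted and matrix proteins 2 of 4 (median -0.03). Over all 33 markers 28 lay below 0 with a median of -0.27, against 50.5% of all genes and a median of 0. Groups did not overlap for 7 markers on the lower side and for none on the higher side, where 10.7% and 12.6% of all genes did so. Without NT replicate 1 the count below 0 was 23 and the median -0.17, without NT replicate 3 they were 30 and -0.42, and without the sublingual-high libraries they were 25 and -0.19. A fit limited to genes with a mean of at least 5 CPM held 12 of the markers, of which 10 lay below 0 with a median of -0.26. Eng (0.12 ± 0.13) and Pecam1 (-0.02 ± 0.13), which are among these 12, had intervals that ended at -0.15 and -0.30 on the lower side.

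The change from day 4 to day 30 after irradiation was compared directly between IR_30d and IR_4d. NT is not a side of these log2 ratios, but the NT libraries enter the shared estimate of the spread and so the p-values. None of the 33 markers passed, against 6.81% of all genes, and 4 had an unadjusted p under 0.05, all on the lower side, against 8.69% of all genes on that side. These were Mmrn2 (-0.51 ± 0.18), Rasip1 (-0.94 ± 0.34), a regulator of endothelial tube formation, Clec14a (-0.39 ± 0.17) and Plvap (-0.29 ± 0.14). DESeq2 called none. The median over the 33 was -0.14 with 24 below 0, against 52.1% of all genes. With the sublingual and adipose terms it was -0.10 with 21 below 0. Leaving out 1 library at a time gave medians from -0.20 to -0.12 with 20 to 25 markers below 0. Without the sublingual-high libraries, with IR_4d replicate 3 alone in its group, the median was -0.21 with 22 below 0.

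The comparison of IR_iEV_4d with IR_4d asked what iEVs added to irradiation by day 4. No marker passed the test, and 0.0312% of all genes did. DESeq2 called none either. Of the 33 log2 ratios 30 lay above 0 with a median of 0.29, against a share of 50.8% of all genes below 0 and a median of 0. At an unadjusted p under 0.05 there were 5 markers, all on the higher side: Cd34, Pecam1, Icam2, Nos3 and Eng. On that side 3.85% of all genes had such a p. For 7 markers every IR_iEV_4d library lay above every IR_4d library and for none below, where 7.31% and 6.92% of all genes did so. Pecam1 had a log2 ratio of 0.39 ± 0.13 (adjusted p = 0.6065) and Cd34 of 0.43 ± 0.14 (adjusted p = 0.5782).

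Among these 5, Icam2 and Nos3 are markers of low abundance. Icam2, an adhesion molecule for leukocytes, had 0.473, 0.604 and 0.629 CPM in IR_4d and 1.47, 1.47 and 0.682 in IR_iEV_4d, a log2 ratio of 1.08 ± 0.43. Nos3, the endothelial nitric oxide synthase, had 1.54, 0.906 and 1.22 CPM in IR_4d and 2.19, 2.35 and 1.61 in IR_iEV_4d, a log2 ratio of 0.74 ± 0.31. For both genes the lowest IR_iEV_4d library lay just above the highest IR_4d library. The 3 markers below 0 were Vwf, the clotting factor stored in endothelial granules (-0.27 ± 0.25), Rasip1 (-0.23 ± 0.33) and Ecscr (-0.03 ± 0.36).

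Adipose markers were uneven over the same libraries, with overlapping groups, and their part in the endothelial ratios was not tested. Their summed level was 8.03 to 173 CPM in IR_4d and 50.6 to 410 in IR_iEV_4d, with all 9 above 0 in log2 ratio and none past the test, and none of the defining genes Adipoq and Plin1 was at 0 in these 6 libraries. In a fit with the sublingual and adipose marker levels as added terms, the markers had a median of 0.27 with 3 below 0. Leaving out the sublingual-high libraries, which sets IR_iEV_4d replicate 1 alone against IR_4d replicate 3 alone, gave a median of 0.24 with 9 below 0. Leaving out 1 library at a time gave medians from 0.25 to 0.40 with 3 to 5 markers below 0.

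The comparison of IR_iEV_30d with IR_30d asked the same on day 30. No marker passed, against 0.798% of all genes, and DESeq2 called none. Of the 33 log2 ratios 13 lay below 0 with a median of 0.03, against 51.5% of all genes below 0. At an unadjusted p under 0.05, which 12.9% of all genes had, there were Esam, an adhesion molecule of tight junctions (0.55 ± 0.24, adjusted p = 0.3565), and Tek, the angiopoietin receptor (-0.49 ± 0.21, adjusted p = 0.3302). Esam had 1.87, 2.64 and 2.26 CPM in IR_30d and 3.81, 2.50 and 3.57 in IR_iEV_30d, and Tek had 2.51, 4.56 and 3.95 in IR_30d and 2.61, 2.85 and 2.41 in IR_iEV_30d. Both pairs of groups overlapped. The summed CPM of all 33 markers was 192, 215 and 209 in IR_30d and 211, 195 and 221 in IR_iEV_30d.

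Whether the iEV change differed between day 30 and day 4 was tested as an interaction. With iEVs given every week from day 1, the day and the number of injections cannot be told apart in it. No marker passed, against 0.125% of all genes, and DESeq2 called none. At an unadjusted p under 0.05 there were 5, all with the lower iEV change on day 30 (5.36% of all genes on that side): Tek (-0.82 ± 0.29), Nos3 (-1.11 ± 0.45), Cd34 (-0.49 ± 0.20), Icam2 (-1.38 ± 0.61) and Eng (-0.40 ± 0.18). The lowest adjusted p among the 33 was 0.4025 (Tek). The median over the 33 was -0.30 with 26 below 0, against 51.3% of all genes. It was -0.18 without IR_4d replicate 1, -0.19 without IR_iEV_4d replicate 1 and -0.15 without IR_30d replicate 3. Without the sublingual-high libraries it was -0.16 with 22 below 0, and with the sublingual and adipose terms -0.20. The leukocyte gene C1qa passed on the lower side (-1.04 ± 0.18, adjusted p = 0.0163), a call lost without IR_4d replicate 3 or IR_30d replicate 2 or 3 (adjusted p 0.0612 to 0.0834).

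The iEV groups were also set against NT. In IR_iEV_4d 8 of 33 markers had a log2 ratio below 0 (51.6% of all genes), with a median of 0.18, and Eng (0.40 ± 0.13, adjusted p = 0.1142) was next to Mmrn2. The median was 0.32 without NT replicate 1 and 0.31 without IR_iEV_4d replicate 3. It was 0.10 with 14 below 0 without NT replicate 3, 0.06 with 12 below 0 without IR_iEV_4d replicate 2, and 0.07 with 12 below 0 with the sublingual and adipose terms. Pdgfra fell in this comparison (-0.48 ± 0.12, adjusted p = 0.041), with adjusted p-values of 0.116 to 0.151 without NT replicate 2 or 3 or IR_iEV_4d replicate 1 or 2. In IR_iEV_30d no marker passed, against 1.1% of all genes, and 6 had an unadjusted p under 0.05, all on the lower side, where 6.39% of all genes had one. Of the 33, 29 lay below 0 with a median of -0.22, against 50.6% of all genes. Cd34 stood at -0.58 ± 0.14 (adjusted p = 0.05307), Tek at -0.78 ± 0.21 (adjusted p = 0.08053) and Clec14a at -0.61 ± 0.17 (adjusted p = 0.1004). DESeq2 called these 3, a count that has no DESeq2 share of all genes beside it. Without NT replicate 1 the count below 0 was 21 with a median of -0.07, without NT replicate 3 the median was -0.35, and without the sublingual-high libraries it was 19 with a median of -0.03. These comparisons share the NT libraries with the comparisons of irradiation alone.

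Genes of factors that signal to endothelium and of the cells that wrap vessels were followed beside the markers. Vegfa, the ligand of Kdr and Flt1, had 391, 550 and 525 CPM in NT, 539, 482 and 567 in IR_4d, 392, 387 and 501 in IR_iEV_4d, 833, 1000 and 853 in IR_30d and 471, 590 and 445 in IR_iEV_30d. The IR_30d libraries lay above all 12 others. Vegfa rose by 0.87 ± 0.14 in IR_30d against NT (adjusted p = 0.0015) and fell by 0.83 in IR_iEV_30d against IR_30d (SE 0.14, adjusted p = 0.0128). The rise was past the threshold in every alternative run. The fall was not when IR_30d replicate 2 or 3 or IR_iEV_30d replicate 1 or 3 was left out (adjusted p 0.0567 to 0.0791), nor in the fit with sublingual and adipose terms (0.078). The log2 ratios of its receptors in the same contrasts were -0.26 ± 0.18 and -0.08 ± 0.18 for Kdr and -0.27 ± 0.15 and 0.02 ± 0.15 for Flt1, and none passed.

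Among the 13 angiogenic ligands tested, 3 rose and none fell in IR_30d against NT: Vegfa, Fgf1 (0.78 ± 0.12, adjusted p = 0.000982) and Tgfb1 (0.45 ± 0.12, adjusted p = 0.0434). The call for Tgfb1 was lost when NT replicate 1, NT replicate 2, IR_30d replicate 2 or IR_30d replicate 3 was left out (adjusted p 0.126 to 0.175). In IR_iEV_30d against IR_30d, Vegfa and Fgf1 (-0.60 ± 0.12, adjusted p = 0.0271) fell, and none rose. The Fgf1 fall was lost when any one of the 6 libraries but IR_iEV_30d replicate 2 was left out (adjusted p 0.0682 to 0.130). From IR_4d to IR_30d, Vegfa (0.76 ± 0.14, adjusted p = 0.00341), Fgf1 (0.58 ± 0.12, adjusted p = 0.00737) and Tgfb1 (0.51 ± 0.12, adjusted p = 0.0165) rose. The Tgfb1 call was lost without IR_4d replicate 1 or 2 or IR_30d replicate 2 or 3 (adjusted p 0.0687 to 0.0734). Pgf, a ligand of Flt1, fell by 1.12 from IR_4d to IR_30d (SE 0.23, adjusted p = 0.00648), with means of 6.42 and 2.95 CPM and 3.49 in NT.

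Of 13 tested pericyte and smooth muscle genes, Mcam was the 1 that rose in IR_30d against NT, and none fell. Mcam, the adhesion molecule CD146 of pericytes and endothelium, had 19.3, 22.1 and 19.3 CPM in NT, 41.6, 42.1 and 40.0 in IR_30d and 22.3, 27.7 and 23.2 in IR_iEV_30d. It rose by 1.03 ± 0.11 in IR_30d against NT (adjusted p = 2e-05) and fell by 0.76 in IR_iEV_30d against IR_30d (SE 0.11, adjusted p = 0.00378). Both calls held in every alternative run. Of the rest of the list, Pdgfrb, the pericyte receptor for PDGF, fell by 0.59 in IR_iEV_30d against NT (SE 0.12, adjusted p = 0.0231), a call lost without NT replicate 1 (-0.48, adjusted p = 0.128) or any one of the 3 IR_iEV_30d libraries. Notch3 rose by 0.55 ± 0.12 in IR_iEV_4d against NT (adjusted p = 0.0174), lost without NT replicate 2 or 3 or IR_iEV_4d replicate 2. From IR_4d to IR_30d, Mcam (0.62 ± 0.11, adjusted p = 0.00189) and Tagln rose and Cspg4, the pericyte proteoglycan NG2, fell by 1.04 (SE 0.22, adjusted p = 0.00857), a call lost without IR_30d replicate 3 (-0.90, adjusted p = 0.0568). Tagln, a protein of smooth muscle fibres, had a log2 ratio of 0.65 ± 0.16 (adjusted p = 0.0272), which missed the threshold without any one of the libraries but IR_4d replicate 3 (adjusted p 0.0705 to 0.127).

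**Figure D5:**
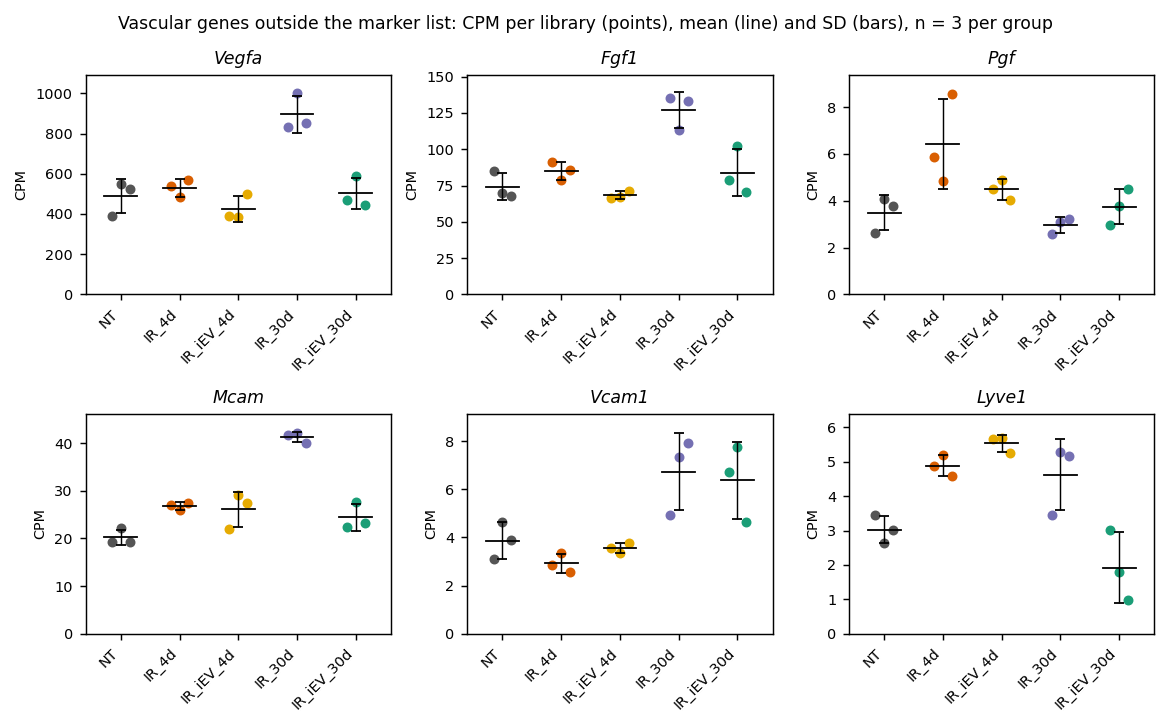
CPM of 6 vascular genes outside the marker list in every library (y axes from 0), by group. Points are libraries, lines are means and bars are SD (n = 3). Vegfa, Fgf1 and Mcam are highest in the 3 IR_30d libraries, and Lyve1 is lowest in IR_iEV_30d with a mean of 1.92 CPM.

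Lists of vessel subtypes had few calls. Of 25 other endothelial genes, 1 fell and none rose in IR_30d against NT: Tspan18, an endothelial tetraspanin, with 4.32 ± 1.66 CPM in NT and 1.98 ± 0.082 in IR_30d (-1.13 ± 0.29, adjusted p = 0.0341). Without NT replicate 3 it was -0.76 with an adjusted p of 0.194, and leaving out any one of the 3 IR_30d libraries also ended the call (adjusted p 0.0927 to 0.136). The median of the 25 was -0.31 with 19 below 0 in IR_30d against NT, and 0.26 with 4 below 0 in IR_iEV_4d against IR_4d, where none passed. Of 7 tested venous and leukocyte adhesion genes, Vcam1, which captures leukocytes on activated endothelium, rose in IR_30d against NT (0.80 ± 0.22, adjusted p = 0.0463) and none fell. Without NT replicate 1 it was 0.66 with an adjusted p of 0.169, and the call was also lost without NT replicate 3 or IR_30d replicate 2 or 3 (adjusted p 0.105 to 0.208). Against IR_4d, Vcam1 in IR_30d rose by 1.20 ± 0.22 (adjusted p = 0.00327). The fit without the sublingual-high libraries held IR_4d replicate 3 alone and cannot decide whether this call would hold. Leukocyte markers moved with it: in IR_30d against NT 2 of 4 tested rose (C1qa and Itgam) and none fell, and the IR_30d libraries summed to 106 to 135 CPM over the list. The NT libraries had 76.5 to 83.9 CPM and the IR_4d libraries 57.4 to 59.7. C1qa (1.01 ± 0.13) kept its call in every alternative run, and Itgam (0.87 ± 0.22, adjusted p = 0.0292) lost it when NT replicate 1, NT replicate 2, IR_30d replicate 2 or IR_30d replicate 3 was omitted (adjusted p 0.0869 to 0.137). Against IR_4d all 4 rose in IR_30d: Ptprc (1.67 ± 0.29), Itgam (1.34 ± 0.23), C1qa (1.19 ± 0.13) and Csf1r (0.78 ± 0.11), with adjusted p-values up to 0.00341. Their part in the Vcam1 result was not tested.

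Of 8 lymphatic genes, of which Prox1, Flt4 and Mmrn1 are also among the 33, 1 fell and none rose in IR_iEV_30d against IR_30d. This was Lyve1, a hyaluronan receptor of lymphatic endothelium that some macrophages also carry. Lyve1 had 3.44, 2.64 and 3.01 CPM in NT, 4.88, 5.19 and 4.58 in IR_4d, 5.67, 5.70 and 5.26 in IR_iEV_4d, 3.44, 5.28 and 5.17 in IR_30d and 3.01, 1.79 and 0.966 in IR_iEV_30d. The 3 IR_iEV_30d libraries lay below all 3 IR_30d libraries, with a log2 ratio of -1.28 ± 0.29 (adjusted p = 0.044). The call was lost without IR_30d replicate 2 or 3 or IR_iEV_30d replicate 2 or 3 (adjusted p 0.0890 to 0.199). Leukocyte markers summed to 106, 135 and 131 CPM in IR_30d and 99.4, 95.3 and 76.1 in IR_iEV_30d, so these groups did not overlap either. All 4 tested leukocyte genes lay below 0 in that comparison and none passed. C1qa came closest (-0.54 ± 0.12, adjusted p = 0.0505), with means of 49.7 and 34.2 CPM. Their part in the Lyve1 result was not tested. In the same comparison Prox1 stood at -0.19 ± 0.51, Flt4 at 0.00 ± 0.19 and Mmrn1 at -0.33 ± 0.36, and none passed. No arterial gene passed in IR_4d or IR_30d against NT, or in either comparison of iEVs with irradiation alone. Of the sprouting genes, Cxcr4, the receptor for Cxcl12 on tip cells and leukocytes, fell by 1.98 in IR_iEV_4d against NT (SE 0.41, adjusted p = 0.0139), with means of 1.78 and 0.447 CPM. That call was lost without NT replicate 2 or 3 or IR_iEV_4d replicate 1.

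Among the lists of other tissue, the water channel gene Aqp5 of acinar epithelium fell in IR_30d against NT (-0.45 ± 0.10, adjusted p = 0.0121) and against IR_4d (-0.69 ± 0.10, adjusted p = 0.000433). It rose in IR_iEV_30d against IR_30d (0.45 ± 0.10, adjusted p = 0.0411). Without IR_30d replicate 1 the first call was lost (adjusted p = 0.0675), and the rise held only without IR_iEV_30d replicate 2 among single omissions (otherwise adjusted p 0.0594 to 0.205). From IR_4d to IR_30d the basal keratin gene Krt5 (-0.52 ± 0.11, adjusted p = 0.00966) and the fibroblast gene Pi16 (-0.69 ± 0.18, adjusted p = 0.0278) fell. Krt5 lost its call without IR_4d replicate 2 or IR_30d replicate 1 (adjusted p 0.064 and 0.0569), and Pi16 without any library but IR_30d replicate 3 (adjusted p 0.0512 to 0.136).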

How the data were processed

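The deposited data are raw read counts in a single table, with gene symbols as rows, the 15 libraries as columns and no normalization by the authors. The submitters' processing notes name TopHat, HTSeq, DESeq2 and build GRCm39; versions, annotation and strand setting are not given in the sources used here, so reads of antisense partners may be included. Per the labels' protocols, RNA was extracted with TRIzol and the library kit was directional.

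Counts were tested with edgeR 4.0.16 (R 4.3.3): TMM scaling, filterByExpr (minimum count 10, minimum total 15) and robust quasi-likelihood F tests. The 15 libraries shared a single fit, which left 10 residual degrees of freedom. For each of the 8 comparisons, p-values were adjusted over all 16042 genes by Benjamini-Hochberg, and an adjusted p under 0.05 counted as passing. Levels are CPM; log2 CPM used a prior count of 2. SE is the absolute log2 ratio over the square root of F. Per-kilobase levels used exonic lengths of the preceding build, GRCm38. The code was tested on simulated data.

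Markers and lists were chosen with earlier results of these data known. All 33 markers are accounted for; library values are given for those past the threshold and for Pecam1, Cdh5, Kdr and Prox1, and list genes past the threshold are named, up to 4 per list and comparison. Others shown were picked after their values were seen. Alternatives were DESeq2 1.42.0, its size factors, other filters, a replicate block, tissue-marker covariates, and leaving out libraries. The shares of all genes quoted are those of the main edgeR fit. Counts of markers called in the alternatives have no such share beside them.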

Additional observations from a re-analysis of the deposited data

How the results depend on the processing

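Calls of the markers differed between the alternatives and are given by comparison. A count over all alternatives is not given, as these take in a fit with a single library in each day 4 group. In IR_4d against NT, DESeq2 called 1 marker, and leaving out single libraries gave 0 to 1. In IR_30d against NT, DESeq2 called 4, leaving out single libraries gave 0 to 3 (3 without NT replicate 3: Cd34, Clec14a and Plvap), and 0 passed with a replicate block, with sublingual and adipose terms in the fit, or without the sublingual-high libraries. In IR_iEV_4d against NT, leaving out single libraries gave 0 to 3 (3 without NT replicate 1: Eng, Kdr and Mmrn2), and 0 passed with a replicate block or with covariates. Calls without the sublingual-high libraries are not given there, as IR_iEV_4d replicate 1 stood alone for its group. In IR_iEV_30d against NT, DESeq2 called 3, the covariates gave 1 (Cd34), and single omissions gave 0 to 1. In IR_30d against IR_4d, calls without the sublingual-high libraries are not given either, as IR_4d replicate 3 stood alone for its group. Rasip1 had a log2 ratio of -1.49 in that fit. Its level in IR_4d replicate 3 was the highest of all 15 libraries (6.26 CPM), against 3.19 and 3.47 in IR_4d replicates 1 and 2. The remaining 3 comparisons had 0 calls in each alternative run.

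Several small log2 ratios turned sign. Without the sublingual-high libraries, Pecam1 was 0.03, Cdh5 0.23 and Kdr 0.33 in IR_4d against NT, Pecam1 0.11 and Prox1 -0.01 in IR_30d against NT, Cdh5 -0.21 and Prox1 -0.47 in IR_iEV_4d against IR_4d, and Kdr 0.08 in IR_iEV_30d against IR_30d. The sublingual and adipose terms turned Kdr in IR_4d against NT to 0.01. Leaving out single libraries in IR_4d against NT gave -0.23 to 0.04 for Pecam1, -0.14 to 0.04 for Cdh5 and -0.21 to 0.23 for Kdr. In IR_30d against NT it gave -0.14 to 0.13 for Pecam1, -0.43 to 0.01 for Kdr and -0.13 to 0.32 for Prox1. Prox1 ran from -0.17 to 0.76 in IR_iEV_4d against IR_4d and from -0.40 to 0.05 in IR_iEV_30d against IR_30d, where Kdr ran from -0.21 to 0.06. The median over the 33 markers, recomputed after the data were seen, was 0.05 in IR_4d against NT without the sublingual-high libraries, and over single omissions ran from -0.21 to 0.01 there and from -0.06 to 0.11 in IR_iEV_30d against IR_30d. The cause was not tested.

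The replicate numbers showed no clear pairing. The correlation of deviations was over 0.1 for 5 of the 30 pairs with equal numbers (range -0.29 to 0.19). Of the 15 libraries, 1 was closest to its own number. A pairing could still exist, as uneven neighbouring tissue also enters these deviations. With the block, the adjusted p was 0.0724 for Cd34 in IR_30d and 0.0745 for Mmrn2 in IR_iEV_4d, both against NT. No replicates of a group had identical counts. With 3 libraries per group, small changes of markers with few counts, such as Prox1, Apln and Sox7, lay below what could be detected.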

Other observations

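Apln, the ligand of Aplnr that is made by sprouting endothelium, had 0.222 to 1.18 CPM over the libraries of NT and of the groups collected on day 4. On day 30 it had 0.234 to 0.574 CPM in IR_30d and 0.199 to 0.531 in IR_iEV_30d. Aplnr had 3.84 CPM in NT replicate 1 and 0.961 to 2.40 in the other 14 libraries. Neither gene passed the test in any comparison.

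Vwf, the clotting factor of endothelial granules, had 19.8, 13.5 and 8.84 CPM in IR_4d and 7.50, 13.8 and 13.6 in IR_iEV_4d, against 10.6, 10.8 and 10.5 in NT.

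Haemoglobin and platelet genes, used here as markers of blood, summed to 186, 31.1 and 8.06 CPM in the NT libraries. The 33 endothelial markers of these libraries summed to 288, 232 and 202 CPM. In IR_30d the same lists gave 11.7, 101 and 164 CPM for blood and 192, 215 and 209 CPM for the endothelial markers. The IR_4d libraries had 152, 41.1 and 57.3 CPM for blood and 228, 227 and 241 for the endothelial markers. For IR_iEV_4d these were 209, 72.7 and 67.4 beside 281, 290 and 246, and for IR_iEV_30d 8.44, 55.4 and 33.3 beside 211, 195 and 221. A link between these levels was not tested. No blood or platelet gene passed the test in any comparison.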
